A study of Mus musculus with 38 samples.

Results

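A set of 10 genes for extracellular matrix proteins and the contractile cytoskeleton was followed through the retinoic acid (RA) differentiation of mouse embryonic stem cells (mESCs), out of the 23481 genes listed in the bulk RNA-seq table. They are Postn, Dcn, Lum, Fn1, Fbn1, Fbn2, Thbs1, Tagln, Acta2 and Ctgf. The 10 genes were picked for their levels in a single library, that of purified ectoderm-like cells cultured to passage 5 ("ecto culture P5"), so the contrast of that library with the others is given as a description without a test.

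All samples came from the mouse E14 embryonic stem cell line. Cells in the pluripotent state were kept in 2i medium with LIF, which blocks MEK and GSK3, and 2 bulk libraries of them were made. Differentiation was in basal N2B27 medium with 0.25 µM RA, and the whole population was sampled after 6, 12, 24, 36, 48, 60, 72, 84 and 96 h, with 1 bulk library at each time. At 96 h, cells were sorted by antibodies into ectoderm-like cells (CD24 positive, PDGFRA negative) and cells resembling extraembryonic endoderm (XEN-like, PDGFRA positive, CD24 negative). Each gave 2 libraries, which the labels number as replicates and the methods of the study call biological replicates. Both sorted populations were then cultured in N2B27 with EGF and FGF2, starting on dishes coated with laminin and poly-D-lysine. The ectoderm-like cells were dissociated and replated until passage 5, whereas the XEN-like cells were kept as undissociated floating aggregates for 3 weeks, and each culture gave 1 library. Further single libraries came from PDGFRA-negative cells split by CD24 staining into 4 quartiles at 48 h and 3 terciles at 72 h, and from PDGFRA-positive, CD24-negative cells at 72 h. Single cells were profiled by SCRB-seq, a plate method that counts mRNA 3′ ends with unique molecular identifiers (UMIs), at 9 time points, and by SMART-seq2, a full-length method, at 4.

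Fibroblasts and other mesenchymal cells build the fibrous matrix of connective tissue. Collagen fibrils are spaced by small leucine-rich proteoglycans such as decorin (Dcn) and lumican (Lum), microfibrils are made of fibrillins (Fbn1, Fbn2), and fibronectin (Fn1) links the matrix to integrins on the cell surface. Matricellular proteins, among them periostin (Postn), thrombospondin 1 (Thbs1) and connective tissue growth factor (Ctgf), regulate these contacts, and smooth muscle actin (Acta2) and transgelin (Tagln) belong to the contractile stress fibres of smooth muscle cells and myofibroblasts. Neural crest cells, which leave the dorsal neural tube, are an ectodermal source of mesenchyme in the head.

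The 25 bulk libraries held 1063830 to 2459483 UMIs (median 1665383), with 1868001 in the passage 5 culture, and levels are given as CPM, UMIs of a gene scaled to a common library total. UMIs were read from transcript ends, so this scale does not depend on transcript length. Intervals are 95% intervals that cover counting error only. The labelled identity of the cultured cells held in part. Of 11 ectoderm markers, 7 were within 4-fold of the sorted ectoderm-like cells, among them Crabp1 (359 CPM), Mdk (542 CPM) and Hoxb2 (153 CPM), whereas Prtg (6.42 CPM), Cd24a (18.7 CPM) and Pax6 (3.75 CPM) were more than 4-fold lower, and the neural progenitor factor Sox1 had 0 UMIs, against 26.1 and 22.6 CPM in the sorted libraries. The 7 within 4-fold ranged from 0.32-fold (Sox11) to 1.27-fold (Nes) of the sorted level. All 11 ectoderm markers summed to 1653 CPM in the culture and to 3270 and 2803 CPM in the sorted ectoderm-like libraries. The XEN-like culture had a sum of 1552 CPM, mostly from Fabp5 (966 CPM) and Cd24a (421 CPM). The endoderm factors Gata4 (3.75 CPM), Gata6 (3.21 CPM) and Sox17 (0.535 CPM) were low in the passage 5 culture. The matrix genes among the XEN markers were split. Sparc was 3.35-fold, Col4a2 1.76-fold and Col4a1 1.55-fold above sorted ectoderm-like cells. The laminin genes Lama1 (4.28 CPM, ratio 0.0874) and Lamb1 (ratio 0.594) were below these cells, and Lamc1 was near their level (0.849, 0.619 to 1.15). The 11 XEN markers summed to 2235 CPM in the culture and to 485 and 1779 CPM in sorted ectoderm-like replicates 1 and 2 (374, 257 and 844 CPM without Sparc). Because the sorted libraries differed in this sum, they are given separately below.

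On the mouse GRCm38 assembly the genes were spread over several chromosomes, with Dcn, Lum and Ctgf on chromosome 10 and Thbs1 and Fbn1 on chromosome 2. The position of Fbn2 is not given. Dcn (chr10:97479609-97518143, plus strand) and Lum (chr10:97565128-97572703, plus strand) were neighbours, with 46984 bases between their GENCODE annotations. Postn lay at chr3:54361109-54391037 (plus strand), Acta2 at chr19:34241090-34255590 (minus strand), Tagln at chr9:45929619-45936058 (minus strand) and Fbn1 at chr2:125300594-125507993 (minus strand). Fn1 was annotated at chr1:71585520-71653200 (minus strand), Thbs1 at chr2:118111876-118127133 (plus strand) and Ctgf, under its newer symbol Ccn2, at chr10:24595442-24598683 (plus strand).

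The 250 bases upstream of the Postn start site are shown because Postn was the member with the highest level in the culture and was near 0 in the other libraries. Postn has another RefSeq entry further upstream, and the window here is the one next to the annotated gene start (chr3:54360857-54361106, plus strand). Capitals mark the TATA box letters TATAAA.
Postn: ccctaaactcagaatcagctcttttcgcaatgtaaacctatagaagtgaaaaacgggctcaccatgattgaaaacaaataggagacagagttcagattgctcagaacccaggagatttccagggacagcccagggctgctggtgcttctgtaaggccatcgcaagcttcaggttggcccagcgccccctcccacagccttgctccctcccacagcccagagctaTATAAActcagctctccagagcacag
The Postn window held TATAAA with its first base at position -26, letters found (on either strand) in 12.4% of all 32851 windows of 250 bases. It held 52% G and C and 4 CpG, against medians of 52.4% and 6 CpG over all windows.

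**Figure D1:**
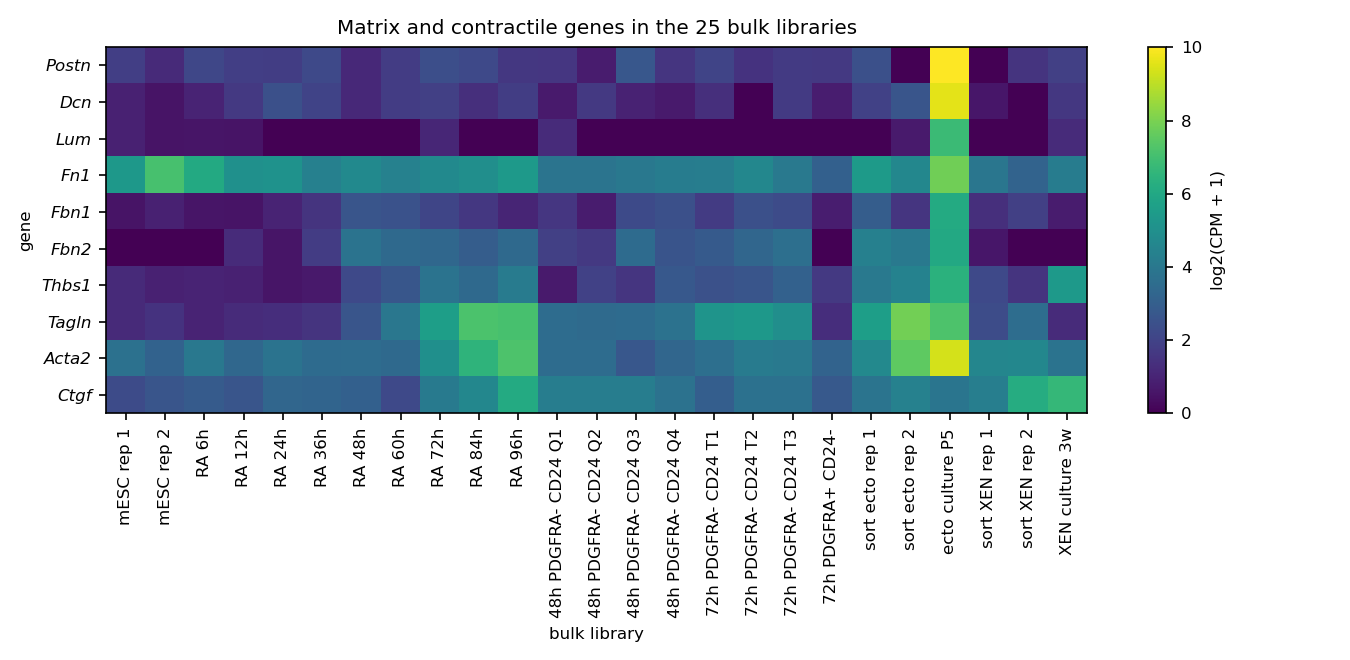
Colour gives log2(CPM + 1) of each of the 10 genes (rows) in each of the 25 bulk libraries (columns, in the order pluripotent cells, RA time course, CD24 and PDGFRA sorts, sorted and cultured populations). Postn, Dcn and Lum are bright in the passage 5 culture alone, Tagln and Acta2 also at 84 and 96 h and in the sorted ectoderm-like libraries, and Ctgf is brightest in the 3-week XEN-like culture.

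The matricellular gene Postn and the proteoglycan genes Dcn and Lum were, on the bulk level, genes of the passage 5 culture. Postn had 1924 UMIs there (1030 CPM) and ranked at place 164 of all genes by level. The sorted ectoderm-like libraries had 8 and 0 Postn UMIs, the sorted XEN-like libraries 0 and 2, and the XEN-like culture 4. Over the other 24 bulk libraries Postn had 0 to 8 UMIs (median 2.35 CPM). Every one of those libraries was thus far below the culture, which held 431-fold more Postn than the pooled sorted ectoderm-like cells (95% interval 218 to 1000).

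Decorin binds collagen fibrils and growth factors of the TGF-beta family. Dcn had 1440 UMIs in the culture (771 CPM), against 5 and 8 UMIs in the sorted ectoderm-like libraries, 1 and 0 in the sorted XEN-like libraries and 3 in the XEN-like culture. The ratio of the culture to sorted ectoderm-like cells was 198 (116 to 374), and the other 24 libraries had 0 to 9 UMIs. Lumican, encoded next to decorin, had 211 UMIs in the culture (113 CPM), and 16 of the other 24 libraries had none. The sorted ectoderm-like libraries held 0 and 1 Lum UMIs, a ratio of 378 with a counting interval of 67.1 to 15003, and against the sorted XEN-like libraries, both at 0, Lum was at least 115-fold higher (floor of 3 counts over both libraries).

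The few UMIs of Postn and Dcn outside the culture amounted, over the pooled libraries, to a similar share of the culture level. Postn, Dcn and C1qtnf3 were the 3 genes without a UMI in any single cell of the SCRB-seq time course, out of 614 that reached 500 UMIs in the culture. Pooled over the other 24 bulk libraries, their levels were 0.233%, 0.232% and 0.291% of those in the culture. What these few UMIs stand for was not tested, and no change of Postn, Dcn or Lum between the other libraries is read from them.

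Fibronectin was the member with the highest level in pluripotent cells. The mESC libraries had 38.9 and 134 CPM of Fn1 (89 and 308 UMIs), a 3.44-fold difference between libraries of the same state (2.71 to 4.41). During RA exposure it ranged from 66 CPM at 6 h down to 19.4 CPM at 36 h and stood at 40.5 CPM at 96 h. Fn1 thus started high, and its lowest time points lay below both mESC libraries. The sorted ectoderm-like libraries had 43.4 and 23.9 CPM, the sorted XEN-like libraries 14.2 and 8.2 CPM and the XEN-like culture 17.2 CPM. The passage 5 culture, with 428 UMIs (229 CPM), was above every other library, by 6.67-fold over sorted ectoderm-like cells (5.42 to 8.27) and by 2.65-fold over the pooled mESCs (2.3 to 3.04).

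Of the fibrillins, the main proteins of microfibrils, Fbn2 was detected on the ectoderm-like side before culture. Fbn2, the fibrillin best known from developing tissue, had 0 UMIs in both mESC libraries and at 6 h, 0.498 to 2.42 CPM from 12 to 36 h and 6.74 to 13 CPM from 48 to 96 h. It had 19.5 and 15.5 CPM in the sorted ectoderm-like libraries and a total of 1 UMI in the sorted XEN-like libraries and the XEN-like culture together. The passage 5 culture had 121 UMIs (64.8 CPM), 3.67-fold above sorted ectoderm-like cells (2.67 to 5.11).

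Fbn1, the fibrillin of most adult connective tissue, stayed at 1 to 13 UMIs in the other 24 libraries. Its levels were 6.67 and 1.94 CPM in sorted ectoderm-like cells, 1.52 and 2.73 CPM in sorted XEN-like cells and 0.69 CPM in the XEN-like culture, values that overlapped. In the passage 5 culture Fbn1 reached 128 UMIs (68.5 CPM), which was 15.3-fold above sorted ectoderm-like cells (8.93 to 28.1) and near the Fbn2 level of 64.8 CPM.

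Thrombospondin 1 and connective tissue growth factor, matricellular proteins that bind integrins and other matrix components, went separate ways in the cultures. Thbs1 had 1.31 and 0.871 CPM in mESCs and 3.66, 5.4, 13.1, 9.85 and 16.9 CPM at 48, 60, 72, 84 and 96 h. Sorted ectoderm-like cells had 15.6 and 20.7 CPM and sorted XEN-like cells 3.56 and 1.82 CPM, without overlap. Both cultures were above their sorted cells: the passage 5 ectoderm-like culture had 154 UMIs (82.4 CPM), 4.6-fold above sorted ectoderm-like cells (3.39 to 6.31), and the XEN-like culture 60 UMIs (41.4 CPM), 14.1-fold above sorted XEN-like cells (6.95 to 32.3).

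Ctgf went against the description of the group as genes of the ectoderm-like culture. The culture had 26 Ctgf UMIs (13.9 CPM), between the sorted ectoderm-like libraries with 13.3 and 20 CPM. The sorted XEN-like libraries, with 18.3 and 72 CPM, overlapped them, and the XEN-like culture had 144 UMIs (99.3 CPM), the highest of all 25 libraries. In the sort at 72 h, PDGFRA-positive cells were not above the CD24 terciles (5.88 CPM against 6.99, 12.4 and 12.3 CPM). The whole population rose from 3.6 CPM at 60 h to 67.6 CPM at 96 h, and the passage 5 culture was at 0.206 of that 96 h level (0.13 to 0.315).

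The contractile genes Tagln and Acta2 were already present before any continued culture. Tagln had 0.978 to 1.82 CPM from 6 to 36 h, followed by 5.29, 14.4, 48.5, 145 and 135 CPM at 48, 60, 72, 84 and 96 h. Acta2 stayed at 9.25 to 15.2 CPM until 60 h and then reached 30.5, 90.2 and 149 CPM at 72, 84 and 96 h. Both genes were thus highest at the last time points, which are single libraries, and at 96 h they exceeded the pooled mESCs 88.3-fold (Tagln, 42.2 to 222) and 14.9-fold (Acta2, 10.9 to 20.7).

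**Figure D2:**
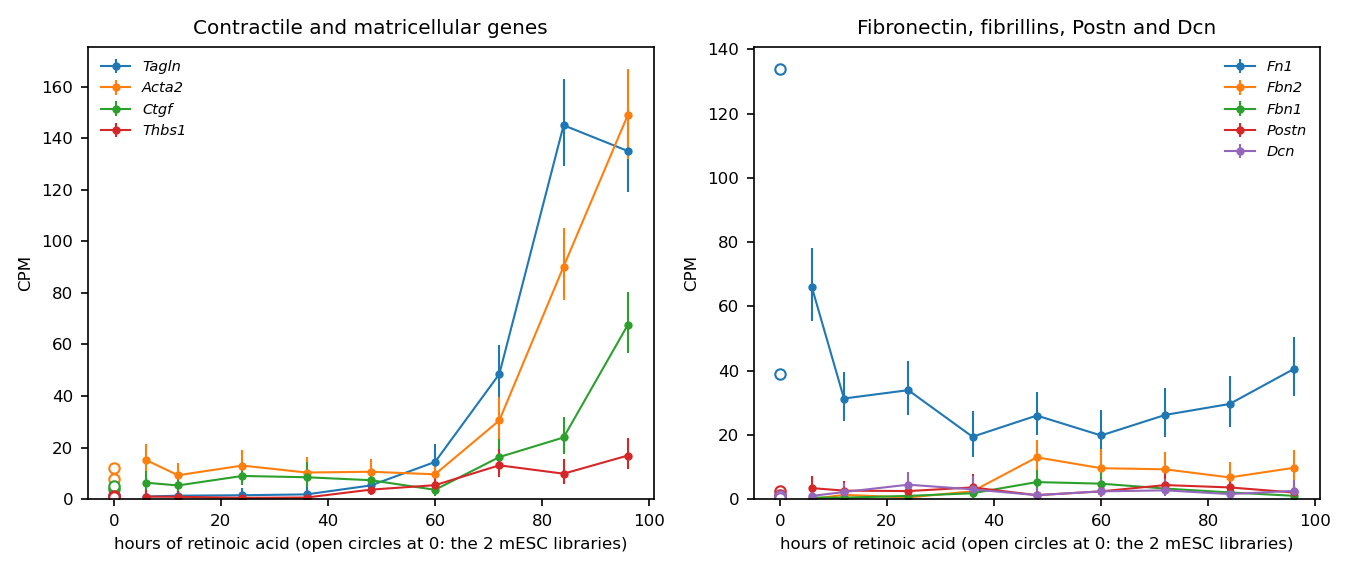
CPM (linear axis) against hours of RA exposure for single libraries, with 95% Poisson intervals; open circles at 0 show the mESC libraries. Tagln, Acta2 and Ctgf rise after 60 h to 135, 149 and 67.6 CPM at 96 h, Fn1 lies between 19.4 and 66 CPM, and Postn and Dcn stay below 5 CPM.

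After sorting at 96 h, Tagln was found mainly in ectoderm-like cells, with 47.8 CPM in replicate 1 and 233 CPM in replicate 2, against 4.06 and 10.9 CPM in XEN-like cells. The sort at 72 h gave the same order, with 35.7, 38.8 and 29.9 CPM in the CD24 terciles of PDGFRA-negative cells and 2 UMIs (1.47 CPM) in PDGFRA-positive cells. Tagln in the pooled terciles was 23.6-fold higher, with a counting interval of 6.39 to 197. The XEN-like culture also had 2 Tagln UMIs (1.38 CPM). The passage 5 culture held 277 Tagln UMIs (148 CPM), between the sorted ectoderm-like replicates and equal within counting error to the 84 h population (ratio 1.02, 0.862 to 1.21), so Tagln, too, went against the description of the group. Its log2 ratio to pooled sorted ectoderm-like cells was 0.15, and -0.16 scaled to Actb, 1.02 scaled to Gapdh, 1.63 without sorted replicate 2 and -0.65 without replicate 1.

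Acta2 differed even more between the sorted ectoderm-like libraries, 25.6 CPM in replicate 1 and 183 CPM in replicate 2, a 7.15-fold gap (5.22 to 9.99) that exceeded the 4.88-fold gap of Tagln (3.85 to 6.25). Replicate 1 was thus close to the sorted XEN-like libraries at 23.4 and 23.7 CPM. Replicate 2 also carried more XEN marker RNA, 22.6 against 3.33 CPM of Gata4, 242 against 30.6 CPM of Dab2 and 935 against 228 CPM of Sparc, and more Fabp7, 52.3 against 2.78 CPM. Their part in the Acta2 and Tagln gap was not tested. The sorted XEN-like libraries, with 102 and 78.4 CPM of Gata4 and 1263 and 950 CPM of Dab2, had less Tagln and Acta2 than replicate 2. In the culture Acta2 had 1232 UMIs (660 CPM), above every other library, 6.71-fold over the pooled sorted ectoderm-like cells (5.94 to 7.6) and 4.42-fold over the 96 h population (3.89 to 5.04). Over replicate 2 alone the ratio was 3.61 (3.17 to 4.12) and over replicate 1 alone 25.8 (19.2 to 35.4).

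**Figure D3:**
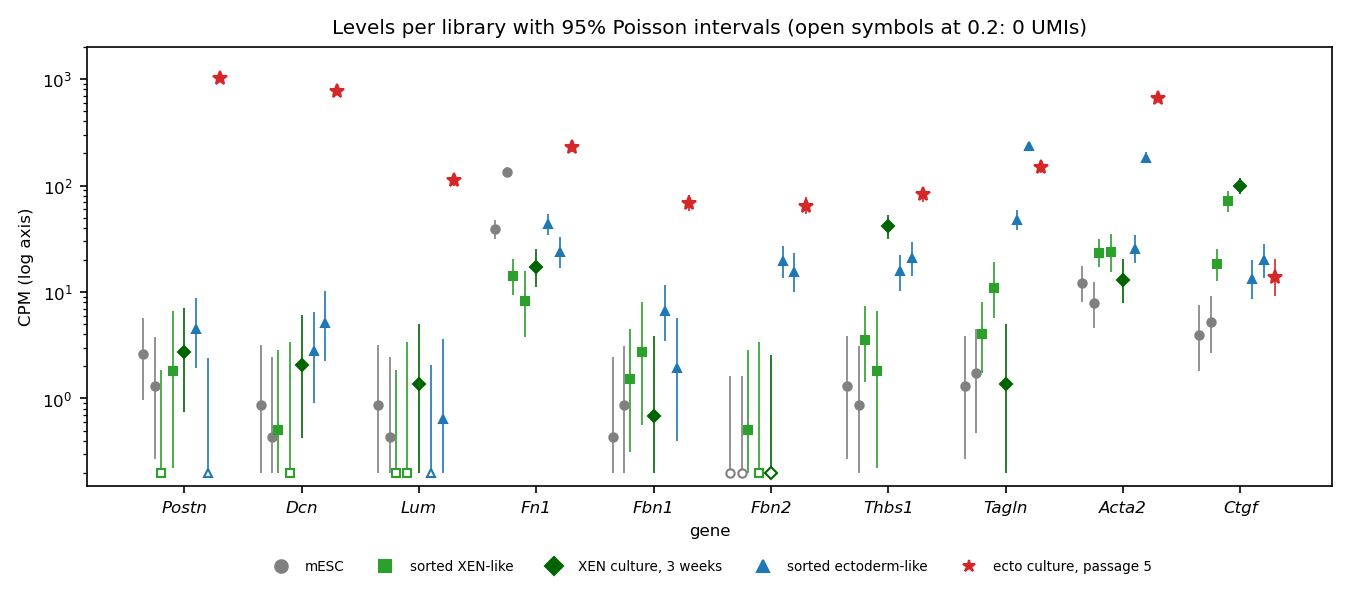
CPM (log axis) of the 10 genes in the mESC, sorted and cultured libraries, each symbol a library with its 95% Poisson interval and open symbols at 0.2 standing for 0 UMIs. The red star of the passage 5 culture is the highest symbol for 8 of the 10 genes, the exceptions being Tagln (148 CPM, below sorted ectoderm-like replicate 2) and Ctgf (13.9 CPM, below the XEN-like libraries).

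Counting genes at least 4-fold above the pooled sorted ectoderm-like cells, among genes with 50 or more UMIs in at least 1 of the 3 libraries, 7 of the 10 qualified, 2 did not and Ctgf had too few UMIs to be counted. The same held for 7.00% of the 4727 genes counted, and 3.36% were as far below. Because the 10 genes were picked on this contrast, nothing is read from that difference. Scaled to Gapdh, which moved the median of all genes by 0.87 on the log2 scale, 685 genes were above and 104 below the 4-fold line, against 331 and 159 with library totals, and scaled to Actb (-0.31) 270 and 208. Just above the line stood Thbs1 (4.6-fold), Fn1 (6.67-fold) and Acta2 (6.71-fold), and just below it Fbn2 (3.67-fold), with Tagln at 1.11-fold (0.952 to 1.29).

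The wider families of these genes were then described in the same contrast, with the median log2 ratio of all 4727 genes at -0.02. In these lists and the marker lists below, most genes counted as at least 4-fold higher reached 50 UMIs in the culture alone. The minimum thus favoured genes high in the culture, and nothing is read from the counts or medians of the lists. Of 8 other small leucine-rich proteoglycans, 5 had 50 UMIs and 4 of these were at least 4-fold higher in the culture: Ogn (412 CPM), Aspn (241 CPM), Bgn (142 CPM) and Fmod (105 CPM), each of which had at most 2 UMIs in either sorted ectoderm-like library. Omd was the exception, at 287 CPM in the culture and 700 and 399 CPM in the sorted libraries. Like Dcn and Lum, these 4 proteoglycan genes were thus close to absent before culture.

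All 5 fibrillar collagens with 50 UMIs, a count they reached in the culture alone, were at least 4-fold higher (median log2 ratio 6.37). Below 50 UMIs, Col2a1 was lower, at 4.28 CPM against 17.2 and 11.6 CPM in the sorted libraries (0.293-fold, 0.12 to 0.623). Col5a3 had 7 UMIs in the culture (4.18-fold, 0.954 to 25.1). Col3a1, the collagen III chain, had 1452 CPM against 6.67 and 5.81 CPM in sorted ectoderm-like cells, and Col1a1, the alpha 1 chain of collagen I, 506 CPM against 0 and 1.29 CPM. Col11a1 (185 CPM) and Col5a2 (124 CPM) were 44.2-fold (26 to 81.6) and 82.8-fold (35 to 257) above the sorted cells. Col1a2, which encodes the alpha 2 chain that normally joins alpha 1 in the collagen I trimer, had 2 UMIs (1.07 CPM) in the culture against 7.23 and 4.52 CPM in the sorted libraries. Whether the counted transcript end misses Col1a2 transcripts cannot be told from these counts.

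Among 18 genes of elastic fibres and microfibrils, 5 had 50 UMIs and 4 were at least 4-fold higher: Mfap4 (194 CPM), Efemp2 (93.1 CPM), Mfap2 (63.7 CPM) and Efemp1 (61.6 CPM), which encode proteins of microfibrils and elastic fibres. Elastin itself had 2 UMIs (1.07 CPM), and the fifth gene, Loxl2, was level (437 CPM against 546 and 254 CPM). Of 14 further matricellular genes, 7 of the 10 with 50 UMIs were at least 4-fold higher, with Spp1 (592 CPM), Tgfbi (302 CPM) and Tnc (196 CPM) highest among them. Spp1 was higher still in the mESC libraries, at 995 and 969 CPM. Sparc, the most abundant of the list in the culture (1861 CPM), was 3.35-fold higher (3.17 to 3.55) and is also counted among the XEN markers. Its level was higher in sorted XEN-like cells (5454 and 3413 CPM), the XEN-like culture (5888 CPM) and the 96 h population (6201 CPM). Cyr61, the closest relative of Ctgf in the list, was at 87.8 CPM against 82.3 and 71.7 CPM, near 1-fold like Ctgf.

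In the contractile list, 1 of 6 genes, Tpm2, was at least 4-fold higher (120 CPM against 22.8 and 11 CPM). Tpm1 (726 CPM), Cald1 (667 CPM), Tagln2 (281 CPM) and Cnn2 (160 CPM) were 1.34-fold to 3.46-fold higher. Several genes of differentiated smooth muscle were near 0 in the culture, with 1 UMI each of Cnn1, Myh11, Lmod1 and Des and none of Myocd. The smooth muscle actin gene Actg2 was low as well but above sorted ectoderm-like cells, with 16 UMIs (8.57 CPM) against 1 and 4 UMIs (5.73-fold, 2.01 to 20), and Smtn had 11 UMIs (2.19-fold, 0.825 to 5.98).

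Of the receptors that bind fibronectin and collagen, 4 of 5 with 50 UMIs were at least 4-fold higher, namely Itgb1 (392 CPM), Ddr2 (61.6 CPM), Cd44 (47.6 CPM) and Itga5 (26.8 CPM). In the TGF-beta list, 2 of 4 were, the ligand Tgfb3 (110 CPM against 1.11 and 0.646 CPM) and the receptor Tgfbr2 (33.2 CPM). In the YAP/TEAD and SRF list, 2 of 9 were higher, Wwtr1 (77.1 CPM) and Axl (36.9 CPM), and Ajuba was lower (8.57 CPM against 43.4 and 29.7 CPM). The median log2 ratio of these 9 genes was -0.13. Ctgf is a standard YAP/TEAD target, and the activity of the pathway was not tested.

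**Figure D4:**
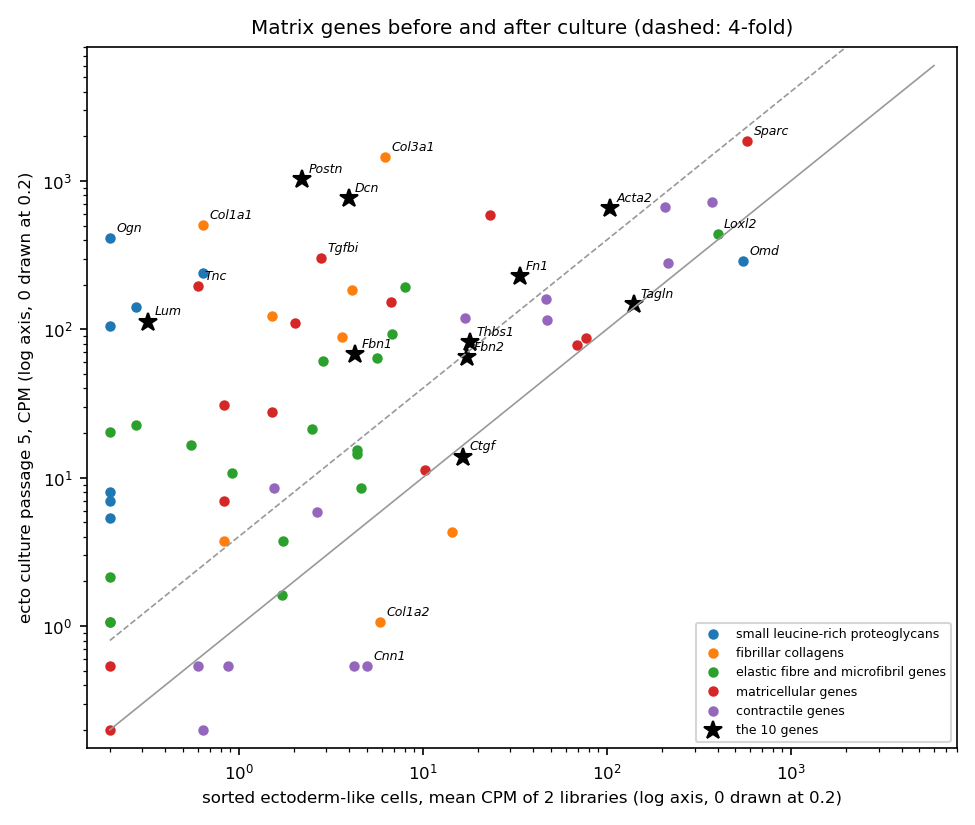
CPM in the passage 5 culture against the mean CPM of the 2 sorted ectoderm-like libraries (log axes, 0 drawn at 0.2) for the 10 genes (stars) and 5 family lists (dots); the solid line marks equality and the dashed line a 4-fold excess. Postn, Dcn and Lum lie far above the dashed line with Col3a1, Col1a1 and Ogn, Tagln and Ctgf lie near the solid line, and Col1a2 and Cnn1 lie below it.

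Markers of mesoderm, endothelium, striated muscle, glia and neurons were at or near 0 in the culture, apart from Tubb3. Summed over each list, the culture had 0.535 CPM of 5 mesoderm markers with 4 at 0, 2.14 CPM of 5 endothelial markers with 3 at 0, and 1.61 CPM of 6 cardiac and skeletal muscle markers with 5 at 0. The 7 glial and neuronal markers summed to 22.5 CPM, of which Tubb3 made 21.4 CPM. Of the fibroblast markers, 3 of the 4 with 50 UMIs were at least 4-fold above sorted ectoderm-like cells (median log2 ratio of the list 6.57), namely the collagen VI genes Col6a1 (198 CPM), Col6a2 (60 CPM) and Col6a3 (40.1 CPM), and Vim was 2.98-fold higher (693 CPM). With fewer UMIs, S100a4 (25.2 CPM) was at least 28.1-fold higher (floor of 3 counts over both sorted libraries), and Thy1 (11 UMIs) and Fap (4 UMIs) were at 0 in both sorted ectoderm-like libraries. Fewer cells of a type and less RNA per cell cannot be told apart in these bulk samples.

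Sorted cells and mESCs, with 2 libraries each, allowed tests without the culture. All of these libraries were also comparators of the culture when the genes were picked, so the tests are not independent of that choice. The fit with edgeR's quasi-likelihood test used all 8947 genes that passed the low-count filter, with Benjamini-Hochberg adjustment. Of the 10 genes, 6 passed the filter (Fn1, Fbn2, Thbs1, Tagln, Acta2 and Ctgf), and Postn, Dcn, Lum and Fbn1 did not.

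In sorted ectoderm-like cells against mESCs, 4 of the 10 genes were higher and 1 lower at an adjusted p below 0.05, beside 9.85% of all tested genes higher and 9.28% lower. Tagln rose by 6.18 on the log2 scale (SE 0.87, adjusted p = 0.00062, edgeR), from 1.31 and 1.74 CPM to 47.8 and 233 CPM. Thbs1 rose by 3.67 (SE 0.59, adjusted p = 0.00135, edgeR), and Fbn2 from 0 UMIs by at least 26.9-fold (floor of 3 counts over both mESC libraries, adjusted p = 0.000567, edgeR). These 3 calls held in every alternative fit that was run. Acta2 rose by 3.09 (SE 0.73, adjusted p = 0.0119, edgeR), but without sorted ectoderm-like replicate 2 the change was 0.98 and the adjusted p 0.221. Fn1 fell by 1.70 (SE 0.52, adjusted p = 0.0419, edgeR), a call that was lost without mESC replicate 2 (-0.51, adjusted p = 0.475) and without either sorted library (adjusted p = 0.0951 and 0.244, edgeR). Ctgf was 1.54 higher without passing the test (SE 0.69, adjusted p = 0.15, edgeR).

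In sorted XEN-like cells against mESCs, which share the mESC libraries with the comparison before, Ctgf was higher and Fn1 lower, beside 12.3% of all genes higher and 10.5% lower. Ctgf rose by 3.07 (SE 0.66, adjusted p = 0.00618, edgeR) from 3.94 and 5.22 CPM to 18.3 and 72 CPM. Without XEN-like replicate 2 its change was 1.66 and the adjusted p 0.0561. Fn1 fell by 3.14 (SE 0.59, adjusted p = 0.00266, edgeR), and without mESC replicate 2 its change was -1.94 (adjusted p = 0.00751, edgeR). Tagln (1.93, adjusted p = 0.226), Acta2 (1.02, adjusted p = 0.368) and Thbs1 (1.12, adjusted p = 0.314) did not pass edgeR's test. The outcome for Tagln depended on the fit, since it passed with the replicate number as a further term (given under the processing below).

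Between the sorted populations, 3 of the 10 genes were lower in XEN-like than in ectoderm-like cells and none higher, beside 5.74% of all genes lower and 6.99% higher. Tagln was lower by 4.25 (SE 0.76, adjusted p = 0.00484, edgeR), Fbn2 by 5.40 (SE 0.83, adjusted p = 0.003, edgeR) and Thbs1 by 2.55 (SE 0.54, adjusted p = 0.0111, edgeR). The Thbs1 call was lost with DESeq2 (adjusted p = 0.057) and when any single sorted library was left out (0.0633 to 0.103), that of Fbn2 without ectoderm-like replicate 1 (0.0581) and that of Tagln without XEN-like replicate 1 (0.0532). Acta2 (-2.07, adjusted p = 0.078), Ctgf (1.54, adjusted p = 0.12) and Fn1 (-1.44, adjusted p = 0.147) did not pass edgeR's test, and without XEN-like replicate 2 the Ctgf difference was 0.14 (adjusted p = 0.919). Without ectoderm-like replicate 2 the Acta2 difference was 0.09, with the sign turned. The labels number the sorted libraries as replicates, and the methods of the study call these and the mESC libraries biological replicates.

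Within PDGFRA-negative cells, CD24 staining separated few of the 10 genes, each class being a single library. At 48 h Fbn2 had 2.68, 2.14, 10.3 and 5.05 CPM from the lowest to the highest CD24 quartile, and Thbs1 0.669, 2.86, 1.88 and 5.68 CPM. Thbs1 in the highest quartile was 8.5-fold above the lowest, on 9 UMIs against 1 (1.18 to 372), whereas the intervals for Fbn2 (1.89, 0.506 to 8.57), Tagln (1.18, 0.581 to 2.44), Acta2 (0.826, 0.373 to 1.81) and Ctgf (0.699, 0.372 to 1.29) included equality. At 72 h the highest against the lowest CD24 tercile gave intervals including equality for Fbn2 (1.85, 0.737 to 5.04), Thbs1 (1.65, 0.542 to 5.51), Tagln (0.838, 0.532 to 1.31) and Acta2 (1.32, 0.641 to 2.77). Fbn2, with 33 UMIs in the terciles, had none in the PDGFRA-positive cells and was at least 4.02-fold higher (floor of 3 counts).

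The wider lists in the sorted contrasts had few tested members, and their calls stand beside the shares of all tested genes (9.85% higher and 9.28% lower in ectoderm-like cells against mESCs, 12.3% and 10.5% in XEN-like cells against mESCs, 6.99% and 5.74% in XEN-like against ectoderm-like cells). Among contractile genes, Tpm1 and Myl9 were raised over mESCs in ectoderm-like cells, 2 of 6 tested, and Tpm1, Myl9 and Tagln2 in XEN-like cells, 3 of 6. Tpm1 and Tpm2 were lower in XEN-like than in ectoderm-like cells, and Tagln2 was higher (2.08, adjusted p = 0.00865, edgeR). Vcan and Cyr61 of the matricellular list rose in ectoderm-like cells, where Spp1 fell. Of the fibrillar collagens Col2a1 alone was called higher, of 2 tested, and of the elastic fibre list Mfap2 was higher and Ltbp4 lower, of 6 tested. Among neural crest and mesenchyme transcription factors, Twist1, Sox9, Zeb2 and Ets1 exceeded their mESC level in ectoderm-like cells, 4 of 7 tested, and Ets1, Msx2 and Snai1 in XEN-like cells, 3 of 7. In XEN-like against ectoderm-like cells, Snai1 was higher and Sox9, Twist1, Zeb1 and Zeb2 were lower.

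In single cells, Postn, Dcn and Lum had no UMI at any time point. SCRB-seq gave 2448 wells with more than 2000 UMIs out of 3456, 137 to 335 per time point, holding 15725890 UMIs. A count of 0 in all these cells allows up to 0.123% of cells with a UMI and 0.00191 UMIs per 10000. At 96 h alone, with 137 cells and 726759 UMIs, the limit was 2.19% of cells.

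Fn1 fell in single cells from 7.79 UMIs per 10000 in mESCs (1467 UMIs in 252 of 282 cells) to 2.69 at 6 h, 1.31 at 24 h and 0.688 at 96 h. Thinned to 2000 UMIs per cell, 72.3% of mESCs and 9.49% of cells at 96 h held an Fn1 UMI, against 89.4% and 20.4% unthinned. The share of cells and the level of Fn1 thus moved down together. Bulk mESCs had 38.9 and 134 CPM, and levels are not compared between the assays. The order of time points differed in bulk, where Fn1 stood at 40.5 CPM at 96 h, 1.56-fold above 48 h (1.1 to 2.2).

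Fbn2 had 0 UMIs in mESCs, 0.4 per 10000 at 48 h, 0.686 at 60 h, 0.741 at 72 h and 0.894 at 96 h (65 UMIs in 26 cells). Fbn1 had 0.198 per 10000 at 60 h and 0.289 at 96 h (21 UMIs in 13 cells). Thbs1 had 0 in mESCs and 0.454 at 96 h (33 UMIs in 22 cells). All 3 genes had no UMI in mESCs in SCRB-seq and their highest level at 96 h. Each time point was 1 plate, and no test was made. At 96 h the interval of Fbn2 was 0.69 to 1.14, overlapping 0.601 to 0.904 at 72 h. That of Fbn1 was 0.179 to 0.442, overlapping 0.137 to 0.276 at 60 h. The interval of Thbs1 (0.313 to 0.638) lay above those of the other time points. The share of cells with Fbn2 was 23.1% at 60 h, 23.4% at 72 h and 19% at 96 h. In bulk the fibrillins were not highest at 96 h, with Fbn1 at 5.29 CPM at 48 h and 1.02 CPM at 96 h and Fbn2 at 13 and 9.74 CPM.

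Tagln in single cells had 0 UMIs in mESCs, 0.125 per 10000 at 48 h, 0.174 at 60 h, 0.329 at 72 h and 1.03 at 96 h (75 UMIs in 31 cells). Ctgf had 0.0212 per 10000 in mESCs and 2 at 96 h (145 UMIs in 50 cells), after 0.374 at 72 h. Acta2 started at 0.35 per 10000 in mESCs, stayed between 0.757 and 1.27 from 6 to 72 h and was 2.53 at 96 h (184 UMIs in 80 of 137 cells). All 3 genes were highest at 96 h, as they were, except for Tagln at 84 h, in the bulk time course. Thinned to 2000 UMIs, 35% of cells at 96 h held Acta2, 24.1% Ctgf and 10.9% Tagln, against 6.03%, 0.709% and 0% of mESCs.

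**Figure D5:**
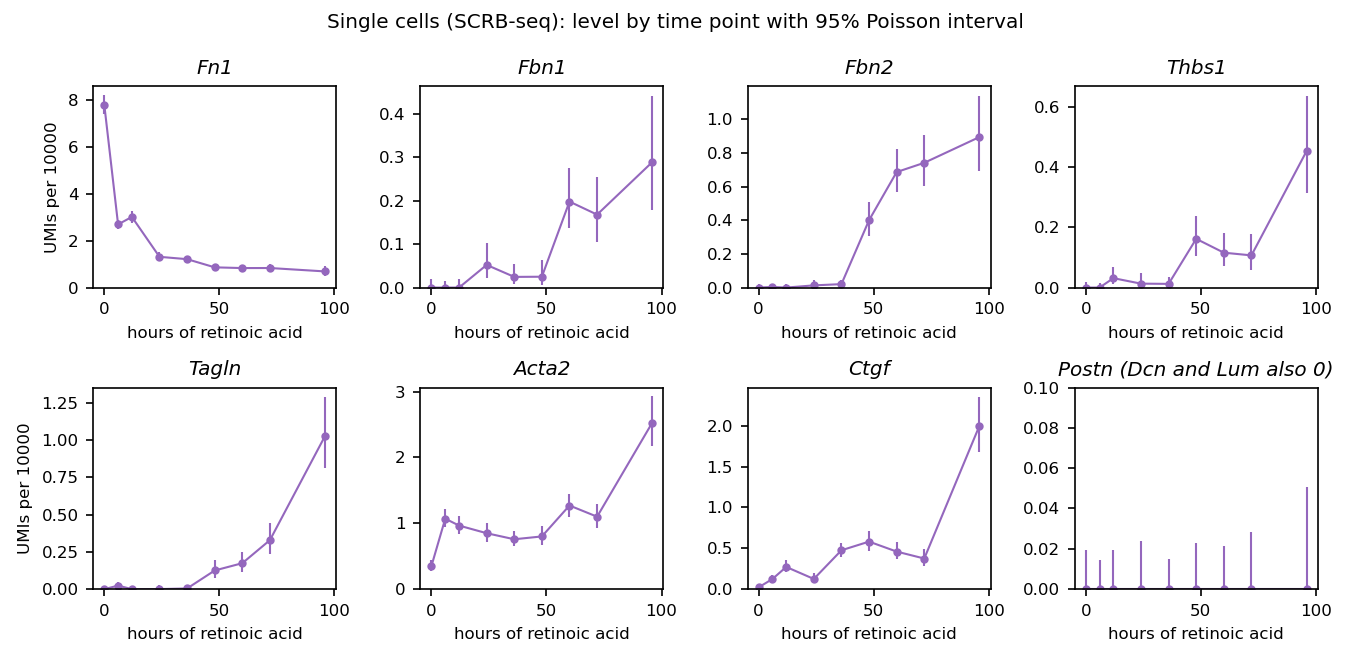
UMIs per 10000 summed over cells with more than 2000 UMIs (linear axes that differ between panels) against hours of RA, with 95% Poisson intervals covering counting error only. Fn1 falls from 7.79 to 0.688, the fibrillins, Thbs1, Tagln, Acta2 and Ctgf are highest at 96 h, and Postn stays at 0.

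The 137 cells at 96 h were split by k-means into 2 clusters on 828 genes that did not include the 10 genes. The markers were among these genes, so that their split is no finding. In 63 cells all 11 XEN markers were higher (Lama1 32.2 against 12.9 UMIs per 10000, Gata6 4.1 against 1.34) and in 74 cells all 11 ectoderm markers (Sox11 2.76 against 0.392, Prtg 6.55 against 2.69). The clusters are not named, since pluripotency genes such as Dppa5a and Klf4 were among the leading genes of the former. Tagln had 1.52 UMIs per 10000 in the ectoderm-marker cluster and 0.453 in the XEN-marker cluster, a ratio of 3.35 (1.88 to 6.36). The ratio was 6.94 for Fbn2 (3.16 to 18), 3.77 for Thbs1 (1.53 to 11.2), 3.56 for Fbn1 (1.16 to 14.5) and 2.15 for Fn1 (1.13 to 4.33). The intervals of Acta2 (1.07, 0.789 to 1.44) and Ctgf (0.74, 0.526 to 1.04) included equality. Clustered on log2 values, 108 of 137 cells kept their cluster, the ratio of Ctgf was 0.347 (0.21 to 0.548) and of Acta2 1.43 (1.05 to 1.93), and those of Fn1 (1.29, 0.695 to 2.35) and Fbn1 (2.58, 0.999 to 6.94) no longer excluded equality. These intervals treat UMIs as independent and leave out the spread between cells, for which they are too narrow. No difference between the clusters is called from them, and no test between cells was made.

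UMIs of these genes were concentrated in few cells at 96 h. The 5 cells with most Tagln UMIs held 52% of them, with a maximum of 16 in a cell, and the 5 with most Acta2 held 26.6%, also with a maximum of 16. Of 31 cells with Tagln, 23 also held Acta2, where the product of the separate shares gives 18.1, and cells holding both had a median of 8559 UMIs against 4028 over all 137 cells. For Fbn2 and Fn1, 12 cells held both against 5.31 from the product, with a median of 8258 UMIs. Depth thus moved with joint detection, and its part in it was not tested.

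SMART-seq2, in 339 cells over mESCs, 12, 24 and 48 h, gave levels in RPKM, reads scaled by transcript length and library total, for the early part of the time course. Fbn2 averaged 0.556 RPKM in mESCs, 2.22 at 12 h, 3.84 at 24 h and 24.3 at 48 h, where 58 of 82 cells exceeded 1 RPKM (70.7%, 59.6 to 80.3) against 3 of 82 mESCs. Fbn1 averaged 1.96, 1.19, 2.88 and 12.5 RPKM, with 27 of 82 cells above 1 RPKM at 48 h. Each time point was 1 sample, the interval covers the count of cells only, and no test was made. Thbs1 averaged 0.0129 RPKM in mESCs and 5.46 at 48 h (18 of 82 cells), and Tagln 0.51 and 6.62 (13 of 82 cells, with a maximum of 197 RPKM).

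Fn1 was above 1 RPKM in all 82 mESCs with a mean of 61.2 RPKM, and at 48 h in 72 of 82 cells with a mean of 34.1 RPKM. Ctgf averaged 23.2 RPKM in mESCs and 36.2 at 48 h, in 42 and 39 of 82 cells, with a maximum of 838 RPKM. This Ctgf detection in mESCs stood beside 1.06% of mESCs with a Ctgf UMI in SCRB-seq. Acta2 averaged 2.02 and 2.13 RPKM, and Postn, Dcn and Lum were above 1 RPKM in at most 2 cells of any time point. Cells with few reads had been removed by the study, and how deeply each remaining cell was sequenced is unknown, since the values hold no counts.

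Across the 24 bulk libraries other than the passage 5 culture, likeness was measured by Pearson's r of log2(CPM + 1), as a description over libraries that share a time course. Fbn2 was most like Spsb4, Crabp2 and Sox1 (r = 0.94 each), of which Crabp2 binds RA and Sox1 marks neural progenitors. Thbs1 was most like Sema3c (0.96), Igfbp5 and Prickle1 (0.92 each). Tagln was most like Pkia (0.92), A730017C20Rik and Myl9 (0.90 each), Myl9 being the regulatory light chain of smooth muscle myosin. Pkia and A730017C20Rik were thinly counted, with 91 and 107 UMIs in these libraries, so their rank is uncertain. Acta2 was most like Fabp7 (0.86), the cardiac actin gene Actc1 (0.83) and Vtn (0.82). Ctgf had Prnp as its nearest gene (0.85) and Fn1 had Pabpc1 (0.88).

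Among the 10 genes themselves, leaving out those thinly counted, the highest correlations over these 24 libraries were those of Fbn2 with Tagln (0.78), Tagln with Acta2 (0.75) and Thbs1 with Tagln (0.65). Fbn1, with 94 UMIs in all 24 libraries, and Postn, Dcn and Lum, with 98, 73 and 12, are too thinly counted for correlations or nearest genes to be given. With the culture included, the r of Postn with Dcn went from 0.08 to 0.87, so that library alone set it.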

How the data were processed

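Bulk RNA-seq and SCRB-seq values were UMI counts, and SMART-seq2 values RPKM. The authors mapped reads to RefSeq transcripts (mm10) using BWA 0.7.4 and deposited counts of distinct UMIs per gene and library or well. The deposited SMART-seq2 RPKM values were made by the authors with tools that the submitters' processing notes list (TopHat, Cuffnorm). Groups followed the sample labels. The 10 genes and the lists were chosen with earlier results of these data known. Named genes were the 10, up to 4 per list with the highest CPM in the culture, those called between sorted cells, and the 3 most correlated genes; others (such as Col1a2, Eln, Efemp1, Fmod, C1qtnf3, Ajuba) were named after their values were seen.

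Bulk genes with text in place of a count (2 genes, 3 values) were left out. CPM was taken over all remaining genes. Intervals are 95% exact Poisson (levels), exact conditional binomial (ratios) or Clopper-Pearson (shares). A value of 0 was set to a floor of 3 counts for ratios. The contrasts of mESCs and sorted cells were fitted in edgeR 4.0.16 (TMM, filterByExpr, quasi-likelihood test, all 6 libraries, SE approximated from the F statistic) and recomputed with DESeq2 1.42.0. Replicates differed by more than sampling noise (chi-square per degree of freedom 7.19 to 12.7). SCRB-seq wells with 2000 or fewer UMIs were dropped and shares also given after thinning to 2000 UMIs; all 9 plates carry the same 384 well names, and no doublet caller was run on these sorted single cells. SMART-seq2 values written with a decimal comma (all below 1 and none of the 10 genes) were read as 0. Scripts were tested on simulated data. Clustering used scikit-learn 1.9.0. Promoter windows were from RefSeq (GRCm38.p6) and gene positions from GENCODE.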

Additional observations from a re-analysis of the deposited data

How the results depend on the processing

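The number of the 10 genes called between sorted cells and mESCs depended on single libraries. Leaving out each library in turn gave 3 to 6 called genes for ectoderm-like cells against mESCs (5 with all libraries), 1 to 2 for XEN-like cells against mESCs (2 with all) and 2 to 5 for XEN-like against ectoderm-like cells (3 with all). Without the low-count filter the last contrast gave 6 calls. Leaving out single libraries moved the log2 difference of Acta2 between the sorted populations from -2.88 to 0.09, the latter, with the sign turned, without ectoderm-like replicate 2. Over all genes, leaving out single libraries gave 419 to 887 higher and 457 to 863 lower in ectoderm-like cells against mESCs (881 and 830 with all), 735 to 1096 and 532 to 866 in XEN-like cells against mESCs (1103 and 939) and 151 to 745 and 145 to 626 between the sorted populations (625 and 514). DESeq2 gave 558 and 654, 852 and 693, and 496 and 283, and no filter 1337 and 1210, 1326 and 1383, and 839 and 828. The sorted groups share replicate numbers, and the labels do not say that a number marks a shared sort or day. The deviations of same-numbered libraries from their group means had a correlation of 0.33 over 8947 genes, and with a replicate block the 3 contrasts gave 5, 3 and 3 called genes, Tagln being added in XEN-like cells against mESCs (1.84, adjusted p = 0.0286, edgeR). For XEN-like cells against mESCs without XEN-like replicate 1, Fbn2 had no value, since all libraries left were at 0.

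In the culture, 7 genes were at least 4-fold above sorted ectoderm-like cells with library totals, TMM factors or a minimum of 10 UMIs, 8 relative to Gapdh and 6 relative to Actb. Leaving out a sorted ectoderm-like library gave 6 to 7. Over all results and alternatives 286 of 327 were rated the same as the main setting, by rules that differed between results. These were the same side of the test, a count of genes close to the main one, or a value inside the main counting interval. For the culture ratios the rule was a shift below the spread between replicates, and for SMART-seq2 means a shift below the spread between cells. Some alternatives could hardly change a result. Keeping the 10 genes in the clustering left all 137 cells in their cluster. Leaving out a XEN-like library removed none of the libraries compared between ectoderm-like cells and mESCs. The share rated the same is therefore not read as a measure of robustness. Genes at a few UMIs (Postn, Dcn, Lum and Fbn1 outside the culture) could not be compared between libraries at this depth, and the culture was 1 library.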

Other observations

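Transcription factors of neural crest and mesenchyme were also measured in the passage 5 culture. Of 19 such genes, 4 had 50 UMIs, and 2 of these were at least 4-fold above sorted ectoderm-like cells: Prrx1, a factor of craniofacial and limb mesenchyme, with 53.5 CPM against 0 UMIs in both sorted libraries (at least 59.7-fold), and Snai2, with 41.8 CPM against 2.22 and 4.52 CPM. Zeb1 (47.1 CPM) and Twist1 (41.2 CPM) were 3.5-fold and 2.87-fold higher. With fewer UMIs, Ets1 (19.3 CPM) and Tfap2a (19.3 CPM), the latter a factor of the early neural crest, were 4.96-fold (2.57 to 10.2) and 3.58-fold (1.98 to 6.7) higher, and Sox9 (13.9 CPM) was near the sorted level (1.14-fold, 0.667 to 1.9). Foxc1 (15.5-fold), Snai1 (8.96-fold) and Prrx2 (3.58-fold) were higher too. Zeb2 (0.588-fold, 0.341 to 0.976) and Msx1 (0.481-fold, 0.223 to 0.952) were lower. Pax3 was also lower, with 1.61 CPM against 7.78 and 3.88 CPM (0.269-fold, 0.0511 to 0.906). The neural crest genes Foxd3 and Sox10 had 0 UMIs in the culture and in both sorted ectoderm-like libraries.

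The proteoglycan gene Omd and the lysyl oxidase gene Loxl2, picked after their values were seen, stood apart from their lists. Omd ranged from 110 to 2081 CPM and Loxl2 from 127 to 1292 CPM over all 25 libraries, pluripotent cells included, with a Pearson r of 0.95 on the log2(CPM + 1) scale. Collagen VI, a collagen of the pericellular matrix, was present in the passage 5 culture through Col6a1 (198 CPM), Col6a2 (60 CPM) and Col6a3 (40.1 CPM), each with at most 2 UMIs in the sorted ectoderm-like libraries.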
